A study of Mus musculus with 42 samples.

Results

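The regions described here lie on mouse chromosome 1 between 165 and 173 Mb (build mm10), a segment of 8 Mb. They come from chromatin immunoprecipitation with sequencing (ChIP-seq) of macrophages with an antibody against histone H3 acetylated at lysine 27 (H3K27ac) or against RNA polymerase II (Pol II). Enriched regions that overlapped between any of an antibody's 18 libraries were joined, and every joined region inside the segment was taken. This gave 346 of 65218 H3K27ac regions and 306 of 70903 Pol II regions, 652 of 136121 in all. The segment was picked because knockout and wild type differed there in these same libraries. Differences between the genotypes are therefore a description. Where a fit over the whole genome calls them, the calls are counted beside the genome's share and nothing is read from them, and p-values are printed only for changes after LPS within a genotype.

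Bone marrow-derived macrophages (BMDMs) were grown for 7 days in L929-conditioned medium from the leg bones of male C57Bl6/J mice of 6 to 12 weeks, either WT or Nur77-KO. Nr4a1, on chromosome 15, is the gene of this nuclear receptor. The KO libraries carry the genotype label cre. According to the study's methods the whole-body KO was made by crossing loxP-flanked Nr4a1 mice with mice that express Cre from the CMV promoter, the KO mice used no longer carried Cre, and the WT mice were littermates. Cells were left untreated (0 h) or given 100 ng/ml LPS, a bacterial cell wall component, for 1 or 18 h. For each genotype at each time, 3 libraries were made with either antibody (36 over the 6 groups), along with 1 input library without immunoprecipitation. The study's methods speak of biological replicates, but the labels do not tie the libraries to separate mice or cultures, so p-values measure the spread between libraries, which may be technical. A lower signal can come from less signal per cell or from fewer cells that carry it, and these cannot be told apart here.

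Values are normalized tags, the tags in a region per 10 M tags of its library. A region that the search did not find in a library is listed at 0, and the lowest values the libraries gave a region ran from 4.88 to 8.15 normalized tags over the groups, so a 0 is not an absence of reads. Depth ran from 13.5 to 55.4 M tags for H3K27ac, with 23.6 M tags or more in the KO and 31.1 M tags or fewer in the WT libraries, and from 21.7 to 36.1 M for Pol II. Replicate libraries correlated at 0.9057 to 0.9968 with H3K27ac and at 0.9891 to 0.9952 with Pol II across regions. In the KO, the H3K27ac libraries of replicate 1 at 1 h and 18 h stood apart from the others. The share of their region tags that lay in the segment was 0.622% at 1 h, against 0.674% and 0.661%, and 0.653% at 18 h, against 0.706% and 0.710%. Pol II over Nr4a1 itself read 189, 188 and 208 in the WT and 87.8, 76.1 and 70.2 in the KO libraries at 0 h, so Pol II over the locus was lower but not at 0 in the KO. All 8 macrophage markers were found in every library with both antibodies. Their summed Pol II was lower in the KO after LPS, 26013.4 to 26877.5 against 34756.5 to 36745 at 1 h and 36473.5 to 39518.6 against 42705.6 to 45290.4 at 18 h. Their summed H3K27ac was 5157.9 to 6657.2 in the KO and 7406.2 to 7493.3 in the WT libraries at 18 h, and the part of these sums in the results was not tested. None of 4 mast cell markers was found with either antibody, and 1 of 4 fibroblast markers was found, in the KO at 1 h only, at no more than 6.6 normalized tags. None of 6 T and NK cell markers was found with H3K27ac, while Pol II was found over 2 of them in every library. Their Pol II sums were 87.6 to 121.6 in the KO and 119.7 to 128.3 in the WT at 0 h. They were 33.6 to 45 and 26.4 to 28.8 at 1 h, and 68.5 to 74 and 114.3 to 121.2 at 18 h. Of 5 B cell markers 1 to 3 were found in a group with either antibody, and Pax5 was at 0. The H3K27ac sums over the B cell markers were 175.5 to 251.1 in the KO and 270.2 to 294 in the WT at 0 h. They were 114 to 272.5 and 106.3 to 116.1 at 1 h, and 158.9 to 249.5 and 325.3 to 369.8 at 18 h. Of 4 dendritic cell markers 1 to 3 were found, at 257.6 to 277 normalized tags of H3K27ac in the WT and 195.7 to 433.8 in the KO at 18 h. The part of these lists in the results was not tested. Summed H3K27ac over 6 neutrophil markers, of which 2 or 3 were found and S100a9, Ly6g and Mpo were at 0, was 162 to 179 in the KO and 72.4 to 86.4 in the WT libraries at 0 h. At 1 h it was 105.4 to 123.7 and 59.6 to 70.4, and at 18 h 49.5 to 119.2 and 54.1 to 66.3. Their summed Pol II was 39.3 to 45.3 in the KO and 15.9 to 22.6 in the WT at 0 h. It was 8.6 to 17 and 0 to 8.1 at 1 h, and 0 and 5.6 to 7.6 at 18 h. The part of these sums in the results was likewise not tested.

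H3K27ac marks active promoters and enhancers, and Pol II marks genes being transcribed or held at the promoter. The segment holds 2 clusters of immune receptor genes known from macrophages. The Fc gamma receptors bind antibody-coated particles, Fcgr3 and Fcgr4 as activating and Fcgr2b as inhibitory receptor. Receptors of the SLAM family (Slamf7, Cd84, Cd48, Ly9 and others) sit on the surface of blood cells, bind mostly to themselves or each other and signal through small adapters such as the one encoded by Sh2d1b1. Between and around them lie genes for mitochondrial enzymes, ion channels and transcription factors, among them Atf6, Usf1 and Nr1i3.

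Sequences of 5 regions show DNA that was listed in one genotype only or had the largest Pol II decrease. Each is the middle 300 bases of a merged region on the plus strand of GRCm38, the assembly behind mm10, and none overlaps an exon. Capitals mark an AP-1 motif, searched as TGAGTCA on both strands. The first was listed in all 9 KO and no WT libraries with H3K27ac and lies 159 kb from the nearest gene start (Nuf2, a kinetochore subunit). The next was listed in all 9 WT and no KO libraries in an intron of Atf6, and so was one in an intron of Nos1ap. Another was listed in all WT and no KO libraries with both antibodies, near Nhlh1. The last is from the region with the largest Pol II decrease and lies past the end of Vsig8. Those in Nos1ap and near Nhlh1 were chosen after their values were seen.
H3K27ac between genes, chr1:169369575-169369874: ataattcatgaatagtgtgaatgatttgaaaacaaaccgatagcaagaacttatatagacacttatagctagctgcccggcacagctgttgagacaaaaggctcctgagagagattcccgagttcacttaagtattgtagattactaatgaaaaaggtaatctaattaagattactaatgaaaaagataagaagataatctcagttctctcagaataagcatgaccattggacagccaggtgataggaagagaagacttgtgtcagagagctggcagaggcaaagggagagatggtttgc
H3K27ac in an intron of Atf6, chr1:170807917-170808216: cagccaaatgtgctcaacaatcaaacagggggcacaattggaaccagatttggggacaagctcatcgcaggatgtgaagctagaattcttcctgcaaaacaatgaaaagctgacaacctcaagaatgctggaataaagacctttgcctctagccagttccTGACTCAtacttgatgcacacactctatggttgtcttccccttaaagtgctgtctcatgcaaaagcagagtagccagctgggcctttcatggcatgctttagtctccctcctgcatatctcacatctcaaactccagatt
H3K27ac in an intron of Nos1ap, chr1:170564300-170564599: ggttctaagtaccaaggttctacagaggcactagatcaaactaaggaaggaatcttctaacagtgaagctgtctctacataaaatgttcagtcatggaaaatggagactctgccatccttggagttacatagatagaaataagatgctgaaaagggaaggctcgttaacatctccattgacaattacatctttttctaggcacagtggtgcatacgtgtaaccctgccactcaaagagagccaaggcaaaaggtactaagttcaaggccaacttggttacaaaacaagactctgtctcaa
H3K27ac near Nhlh1, chr1:172048309-172048608: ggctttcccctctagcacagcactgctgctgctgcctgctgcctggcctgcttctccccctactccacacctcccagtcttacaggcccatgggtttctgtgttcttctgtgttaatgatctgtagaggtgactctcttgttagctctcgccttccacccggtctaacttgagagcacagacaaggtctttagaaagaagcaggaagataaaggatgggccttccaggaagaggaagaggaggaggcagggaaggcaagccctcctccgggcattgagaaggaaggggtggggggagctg
Pol II past the end of Vsig8, chr1:172564095-172564394: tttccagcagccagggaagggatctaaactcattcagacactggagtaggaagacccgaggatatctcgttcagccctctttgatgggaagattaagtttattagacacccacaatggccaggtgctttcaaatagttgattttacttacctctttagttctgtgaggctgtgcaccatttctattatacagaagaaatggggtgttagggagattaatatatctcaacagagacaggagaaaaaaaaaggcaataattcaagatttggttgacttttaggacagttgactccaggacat
The Atf6 sequence is the one of the 5 with a motif in its middle 300 bases. In that window AP-1 was found in 27 of 346 H3K27ac members (7.8%, against 9.95% of all merged regions) and 27 of 306 Pol II members (8.82%, against 6.9%). The NBRE, the element Nur77 binds as a monomer, was searched as AAAGGTCA on both strands. It was found in 8 H3K27ac members (2.31%, against 1.55%) and 7 Pol II members (2.29%, against 1.61%). None of the members called between the genotypes in the average over the times held it in that window, which says only that these letters are not there. Over whole regions it was in 1 of 15 H3K27ac members called higher, 5 of 33 called lower and 16.5% of those not called. It was in 7 of 16 called Pol II members (43.8%) and 22.2% of those not called, whose median lengths were 6763 and 2198 bp.

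Differences between KO and WT were not spread evenly over the segment. A region is called here when its limma adjusted p over all tested regions of the genome is under 0.05 and its absolute log2 change is over 1, which is 2-fold, on the scale log2(normalized tags + 10). Averaged over the 3 times, 48 of 279 tested H3K27ac members were called, beside 0.944% of tested regions over the genome, and 47 without the 2 KO libraries that stood apart. Of these, 15 were higher in KO, beside 0.596% of the genome, and 33 lower, beside 0.348%. For Pol II, 16 of 205 tested members were called, beside 0.592%. All 16 were lower in KO, beside 0.211% of the genome called lower and 0.381% called higher. Of all regions called lower in the KO genome-wide, the segment held 33 of 179 H3K27ac regions (18.4%) and 16 of 86 Pol II regions (18.6%). It held 0.542% and 0.504% of the regions tested. Of regions called higher it held 15 of 307 (4.89%) and 0 of 155.

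All but 1 of the regions called in this average lay in one stretch of the segment. Called regions of both antibodies were chained where they lay no more than 1 Mb apart. The chain that reaches into the segment began at 168.36 Mb and ran past the end of the segment to 174.18 Mb. It held 88 called regions, 29 of them higher in KO, over 5.82 Mb. It was the longest of 50 such chains in the genome and the one with most regions, and the next by regions held 33 over 1.74 Mb of chromosome 14. Its place depended on the setting: it held the rank 3 of 9 chains by regions without input regions, and by length the rank 2 with gaps of 2 Mb and 3 with a pseudocount of 1. Of the segment, 4.64 Mb lay inside this stretch of differences and 3.36 Mb before it.

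**Figure D1:**
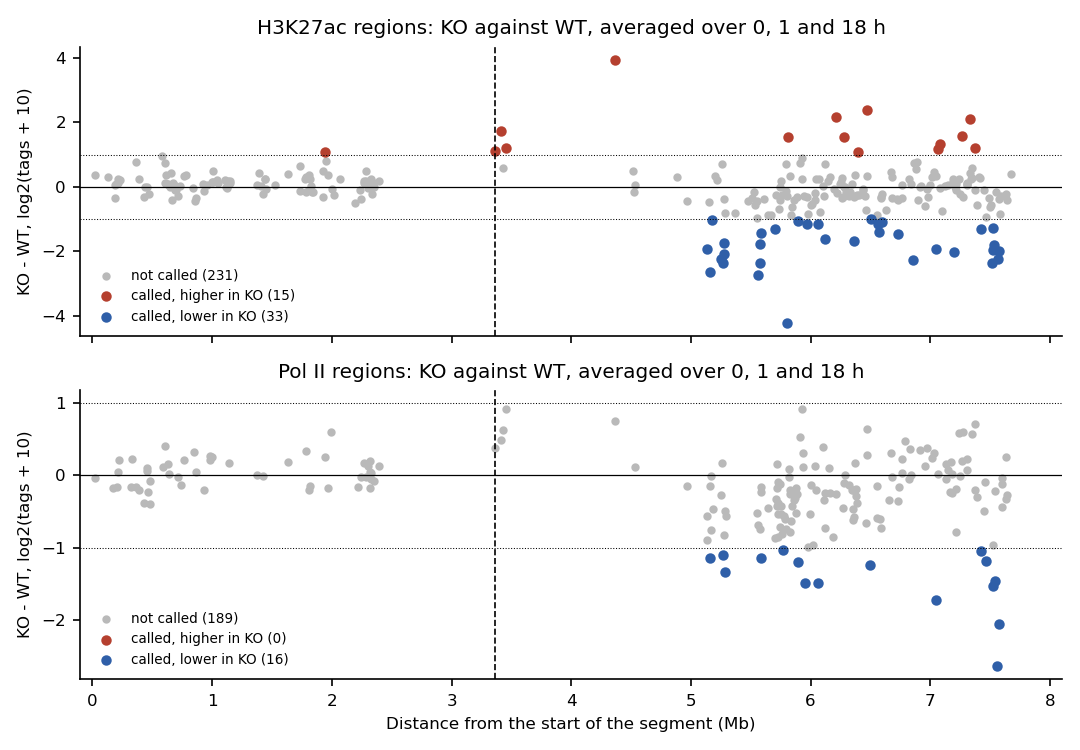
Difference between KO and WT averaged over 0, 1 and 18 h, in log2(normalized tags + 10), for the 279 H3K27ac members (top) and 205 Pol II members (bottom) tested, against their distance in Mb from the start of the segment. Each point is a region, red called higher in KO, blue called lower, grey not called. The dotted lines mark a log2 change of 1 either way and the dashed line the start of the stretch of differences, left of which 1 H3K27ac and no Pol II member was called.

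In the average over the times the 2 genotypes lay closer together before the stretch than inside it. The stretch was drawn from the regions called in this same average, so the contrast between its inside and the DNA before it is only a description. Before it, 1 of 93 H3K27ac and 0 of 51 Pol II members were called on average, and 91.4% and 98% of members differed by less than 0.5 in log2. The median absolute difference was 0.18 for H3K27ac and 0.17 for Pol II. Inside it, 47 of 186 and 16 of 154 were called, the median absolute differences were 0.40 and 0.36, and 57% and 61.7% of members differed by less than 0.5. At the single times fewer members lay within 0.5. Inside the stretch it was 43.8%, 36.2% and 40.1% for H3K27ac and 43.8%, 54.3% and 38.3% for Pol II at 0, 1 and 18 h. Before it, it was 87.3%, 50% and 75.5% for H3K27ac and 76.9%, 58.6% and 71% for Pol II. The median absolute differences before the stretch were largest at 1 h, at 0.49 for H3K27ac and 0.42 for Pol II.

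The left edge moved with the setting, from 166.94 to 170.58 Mb. Under the setting used here the last tested members before it, with both antibodies, were at the start of Mgst3, a glutathione transferase gene, 0.97 Mb before the first called region. There H3K27ac differed by 0.18 and Pol II by 0.125. The first called Pol II region lay further in than the first called with H3K27ac, at chr1:170159149-170162943 in Uap1. Outside the chain the nearest called H3K27ac region was 1.42 Mb before it and 6.5 Mb after it, and the nearest called Pol II regions were 31.79 Mb before and 17.87 Mb after.

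Windows of 1 Mb differed in the direction of their calls. Between 165 and 168 Mb, 1 of 93 H3K27ac and none of 51 Pol II members were called. From 168 Mb, 3 of 4 H3K27ac members were called, and from 169 Mb 1 of 6, all higher in KO. None of 4 and none of 3 Pol II members were called there in the average, while at 18 h all 3 tested from 168 Mb were called higher. From 170 Mb, in the window of Uap1, Nos1ap, Atf6 and Fcgr2b, 15 of 52 H3K27ac and 7 of 60 Pol II members were called lower and 1 H3K27ac member higher. From 171 Mb, in the window of Cd244a, Cd84 and some other genes of these receptor families, 9 of 71 H3K27ac members were called lower and 4 higher. Of 48 Pol II members 2 were called lower. From 172 Mb the counts were 9 lower and 5 higher of 53, and 7 lower of 39. Just past the segment, from 173 Mb, 10 of 25 Pol II regions were called and 8 of them were higher, so the direction of the Pol II calls differed between the 2 neighbouring windows.

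**Figure D2:**
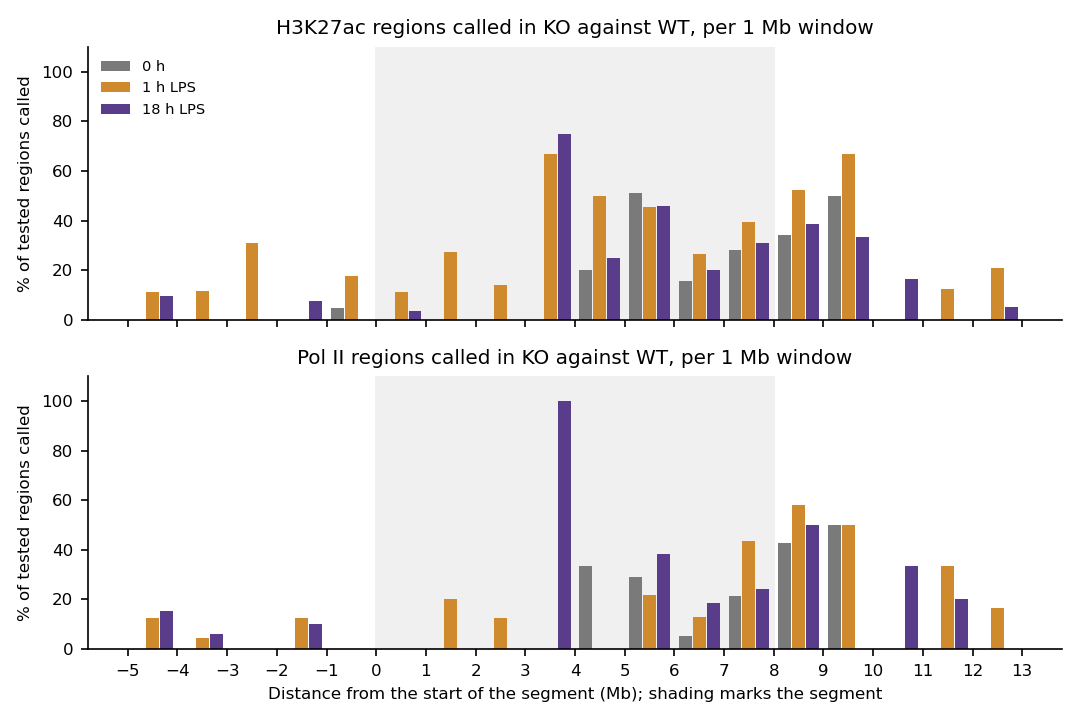
Share of tested regions called between KO and WT (percent) at 0, 1 and 18 h in windows of 1 Mb, from 5 Mb before to 5 Mb after the segment, which is shaded. H3K27ac is at the top and Pol II at the bottom, and a window may hold few tested regions. In the first 3 Mb the bars inside the segment are mostly those of 1 h, when 14.2% of all tested H3K27ac regions of the genome were called.

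The edges of the segment itself were round numbers and not edges of a pattern. On the left, the last H3K27ac region outside differed by 0.09 and the first member by 0.37, and for Pol II by 0.03 and -0.03. On the right, the last Pol II member, chr1:172642976-172644824, differed by -0.27, and the last H3K27ac member was listed too rarely to be tested. The first H3K27ac region past 173 Mb averaged 4.17 normalized tags in KO and was listed in no WT library.

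Calls lay in the stretch at every time. At 0 h, 48 of 239 H3K27ac members were called, beside 1.87% of the genome. Of them 14 were higher in KO (genome 1.27%) and 34 lower (0.597%). With Pol II, 26 of 169 members were called, beside 2.28%, with 3 higher and 23 lower (1.14% of the genome either way). At 18 h, 47 of 196 H3K27ac members were called (3.7%), 12 higher (2.59%) and 35 lower (1.11%). For Pol II at 18 h it was 34 of 151 (6.18%), 5 higher (3.68%) and 29 lower (2.5%). At 1 h, 66 of 221 H3K27ac members were called, beside 14.2%, with 25 higher (9.7%) and 41 lower (4.45%). For Pol II at 1 h it was 21 of 110 (8.63%), 8 higher (6.63%) and 13 lower (2%). With each library centred on its median, 2 and not 8 of the 21 Pol II calls at 1 h were higher. Without the 2 KO libraries that stood apart the H3K27ac counts were 88 at 1 h and 51 at 18 h. The 1 h count was 93, 28 and 37 without replicates 1, 2 and 3, and the 18 h count 31 without replicate 2. All 48 H3K27ac calls at 0 h and all 26 Pol II calls at 0 h fell on the 160 and 130 members tested inside the stretch. At 1 h, by contrast, 12 of 72 H3K27ac members before the stretch were also called.

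Many called members were listed in one genotype only. Of the 48 called with H3K27ac at 0 h, 14 were listed in no KO library at that time, 7 in no WT library and 27 in both. For Pol II at 0 h, 10 of 26 were listed in no KO and 1 in no WT library. In these cases the difference depends on the search as well as the signal, and a fitted log2 change depends on the 10 added and is no bound. The 9 KO and 9 WT values did not overlap for 20 H3K27ac members, beside 0.27% of tested regions. Of these, 4 were higher in KO (genome 0.15%) and 16 lower (0.12%). They did not overlap for 4 Pol II members, beside 0.138%, and all 4 were lower (0.0467%, against 0.0909% higher).

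Regions listed in every library of one genotype and none of the other came to 8 with H3K27ac. Listed in all KO and no WT libraries were 3 (0.0583% of tested regions over the genome), and in all WT and no KO libraries 5 (0.0447%). With Pol II there were 0 and 1 (0.0147% for the latter). The largest KO values were those of the intergenic region chr1:169367276-169372172, the first sequence above. It read 349, 326 and 328 at 0 h, then 64.7, 158 and 151 at 1 h and 82.6, 76.8 and 59.0 at 18 h, with no region in any WT library. Pol II was found at the same place in the KO at 0 h only, at 38.4, 39.3 and 37.4. The H3K27ac signal there fell within the KO after LPS, by 1.45 in log2 at 1 h (adjusted p = 0.000142) and by 2.07 at 18 h (adjusted p = 2.3e-06, both by limma). Below, a bare value in brackets after a log2 change within a genotype is its limma adjusted p.

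The other 2 KO regions were weaker. One lay between genes, chr1:171473045-171475072, 28.4 kb from the start of Alyref2, and read 33.3, 36.3 and 43.3 untreated, 29.0, 34.2 and 44.1 after 1 h and 60.3, 62.0 and 50.0 after 18 h. When regions up to 1000 bp apart were merged, it joined a neighbour and the difference was 0.04 in log2, so its listing in one genotype rests on how regions were delimited. The other, chr1:172261536-172263233 at the start of Igsf8, read 15.4, 12.3 and 18.4 untreated, 52.1, 24.0 and 21.0 after 1 h and 4.88, 28 and 23.8 after 18 h, close to the floor of the search in several libraries. A further region near Kcnj9, chr1:172333596-172336615, was listed in 8 KO and no WT libraries.

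The strongest WT regions lay in introns. In the Atf6 intron, chr1:170805451-170810682, WT libraries read 331, 328 and 322 before LPS, 70.7, 80.9 and 53.6 at 1 h of it and 241, 239 and 233 at 18 h, and no KO library listed it. Atf6 encodes a transcription factor of the endoplasmic reticulum stress response, and the region lies 57.1 kb from its start. In WT it fell at 1 h by 2.12 in log2 (limma adjusted p = 1.45e-08), and the 18 h values lay nearer those at 0 h.

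A region in an intron of Nos1ap, chr1:170562195-170566703, read 235, 219.7 and 206 before LPS, 41.1, 61.0 and 47.7 at 1 h of it and 10.3, 8.74 and 18.0 at 18 h in WT and 0 in all 9 KO libraries. Nos1ap encodes an adaptor of neuronal nitric oxide synthase. After LPS it fell in WT by 1.95 at 1 h (limma adjusted p = 2.28e-07) and by 3.39 at 18 h (3.68e-10), to values near the lowest that libraries list. A Pol II region in the same gene, chr1:170576245-170578371, was likewise listed only in WT at 0 h, at 39.0, 32.3 and 41.4.

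The remaining 3 WT regions were weaker and steadier over time. Near Nhlh1, chr1:172047719-172049197 read 26.9, 22.7 and 20.1 at 0 h, then 26.3, 32.4 and 34.7 at 1 h and 25.9, 31.0 and 31.9 at 18 h with H3K27ac. The overlapping Pol II region read 18.3, 19.2 and 21.9 at 0 h, then 20.3, 18.9 and 15.1 at 1 h and 38.8, 28.8 and 34.9 at 18 h, and neither was listed in a KO library. At a UTR of Dcaf8 and Pea15a, chr1:172194566-172197256 read from 23.6 to 41.9, and in an intron of Cd84, chr1:171859346-171862793 read from 26.8 to 51.6. The Cd84 difference became 0.08 in log2 when regions up to 1000 bp apart were merged.

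Regions listed in both genotypes differed as well. One of them, chr1:172511601-172516507, 4.29 kb before the start of Cfap45, read 908, 945 and 935 untreated, 457, 432 and 467 after 1 h and 816, 865 and 799.9 after 18 h in WT. In KO it read 189.6, 197 and 212 untreated, 104, 159 and 152 after 1 h and 105, 65.8 and 59.4 after 18 h, below every WT value, a difference of -2.38 ± 0.09 (SE) in log2. At an exon of Uap1, which makes the sugar donor UDP-N-acetylglucosamine, chr1:170159411-170162911 read 145, 152 and 152 before LPS, 272, 261 and 254 at 1 h of it and 223, 234 and 204 at 18 h in WT. KO libraries read 8.57, 13.6 and 0 before LPS, 72.2, 24.2 and 22.7 at 1 h of it and 14.6, 77.2 and 66.6 at 18 h. Again no KO value reached a WT value. The region in Sh2d1b1, chr1:170279889-170284572, read 591, 600.0 and 586 at 0 h, then 77.0, 85.9 and 68.7 at 1 h and 461, 501 and 466 at 18 h in WT. KO values were 215, 245 and 252 at 0 h, then 17.2, 24.2 and 33.1 at 1 h and 15.7, 43.4 and 35.3 at 18 h, so that the values seen in WT at 18 h were not reached in KO.

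Higher in KO was a region at Nr1i3. Upstream of Nr1i3, which encodes the xenobiotic receptor CAR, chr1:171208258-171213476 read 83.0, 71.5 and 82.8 untreated, 23.3, 0 and 10.5 after 1 h and 63.8, 78.9 and 60.5 after 18 h in WT. KO libraries read 183, 189.5 and 181 untreated, 51.0, 553 and 534 after 1 h and 407, 172 and 161 after 18 h. The KO libraries of replicate 1 lay far from the other 2 at 1 h and 18 h, and the call was lost without replicate 2 or 3 (1.91 and 2.09 in log2, against 2.18 ± 0.37 (SE)). Without those 2 KO libraries it was 2.39 and still called.

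**Figure D3:**
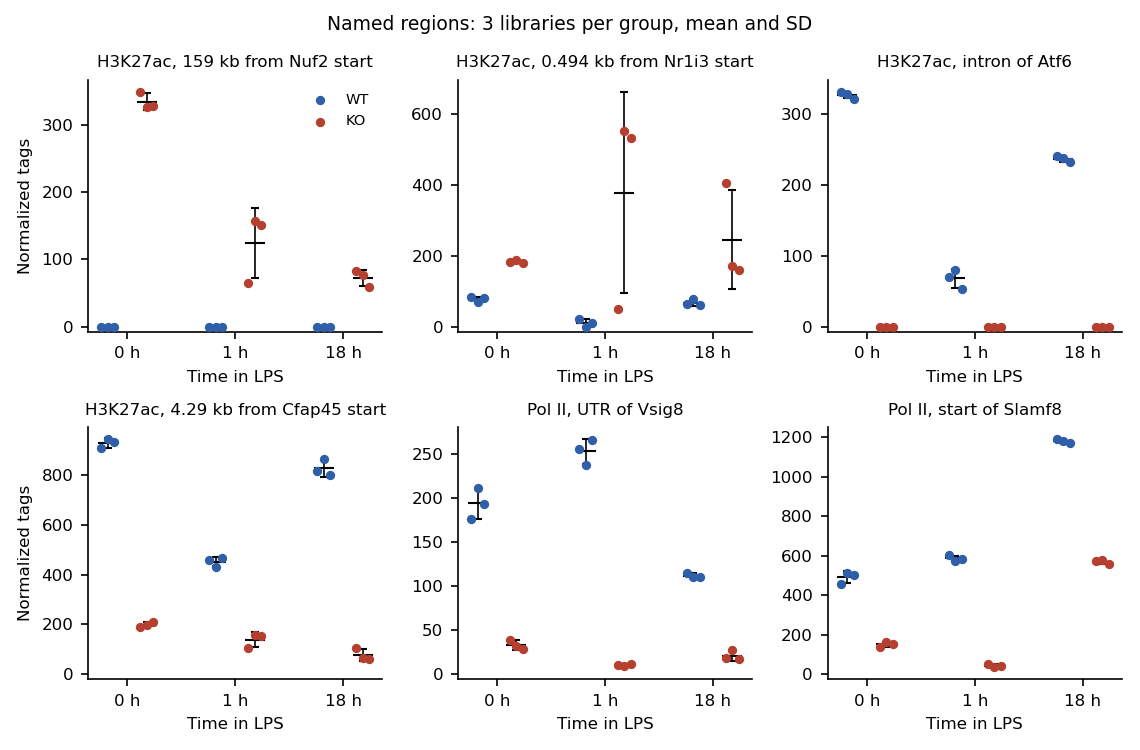
Normalized tags of 6 regions at 0, 1 and 18 h of LPS. Points are the 3 libraries of a group, WT in blue and KO in red, and bars give the mean and SD. The regions at Atf6 and Cfap45 and both Pol II regions are lower in KO at each time, the region 159 kb from Nuf2 is listed in KO only, and the region upstream of Nr1i3 is spread widely among the KO libraries at 1 and 18 h.

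With Pol II the largest decreases lay at the far end of the segment. The region at the end of Vsig8, chr1:172560687-172567802, read 177, 212 and 193 before LPS, 255, 237 and 266 at 1 h of it and 115, 109.8 and 109.7 at 18 h in WT. KO values were 39.0, 32.0 and 28.1 before LPS, 10.3, 8.97 and 11.9 at 1 h of it and 17.9, 27.6 and 17.7 at 18 h. Its difference was -2.64 ± 0.07 (SE) and the 9 KO values lay below all 9 WT values. The neighbouring region over Slamf8, a SLAM family gene of myeloid cells, spans 21.4 kb, chr1:172575556-172596974. It read 458, 512 and 503 at 0 h, then 602, 575 and 584 at 1 h and 1192, 1179 and 1169 at 18 h in WT. KO libraries read 138, 163 and 154 at 0 h, then 51.0, 36.7 and 42.7 at 1 h and 573, 580.2 and 556 at 18 h, so that KO was lower at each time and lowest at 1 h. Within KO it fell at 1 h by 1.60 (limma adjusted p = 2.42e-11) and rose at 18 h by 1.85 (6.83e-12). In WT the change was 0.25 at 1 h (0.0102), under the fold threshold, and it rose by 1.25 at 18 h (1.18e-09).

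Called-lower members were longer, with a median of 4055 bp for H3K27ac and 6763 bp for Pol II, against 2333 and 2198 bp for tested members that were not called. Called-higher H3K27ac members had a median of 2822 bp and 1 of 15 lay at a gene start. Of the called-lower members, 7 of 33 H3K27ac and 6 of 16 Pol II regions lay at a gene start, against 57 of 231 and 49 of 189 not called. Median GC content lay between 43.7% and 46.8% in each of these sets.

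The differences seen with the 2 antibodies had the same sign at most places. At 216 pairs of overlapping tested members, the H3K27ac and Pol II differences between KO and WT correlated at 0.565 across pairs, and 157 had the same sign. Inside the stretch the correlation was 0.552 over 162 pairs and before it 0.114 over 54 pairs. Both members were called in 14 pairs, none of them in opposite directions. Pairs share the libraries of their antibody and neighbouring pairs the same genes, so they are not independent points.

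Sums over the stretch moved the same way. Inside it and the segment, the KO libraries placed 0.50% of their H3K27ac region tags at 0 h, against 0.616% in WT, a ratio of 0.812, and the ratios at 1 and 18 h were 0.783 and 0.789. For Pol II the ratios were 0.758, 0.655 and 0.743. In the segment before the stretch they were 1.02, 1.14 and 1.04 for H3K27ac and 1.14, 1.07 and 0.901 for Pol II. In each of the 6 comparisons inside the stretch every KO library lay below every WT library. Before it the libraries did not overlap in 5 of 6, with KO higher at 0 and 1 h with both antibodies and lower with Pol II at 18 h. Without the H3K27ac libraries that stood apart, the KO shares were 0.548% and 0.535% at 1 h and 0.621% and 0.628% at 18 h, against 0.673% to 0.676% and 0.757% to 0.759% in WT. The covered length differed too. H3K27ac regions inside it covered 509 kb in KO and 559 kb in WT at 0 h at 84.5 and 92.2 tags per kb, and Pol II regions covered 619 and 789 kb at 53.7 and 53.1 tags per kb.

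The input libraries differed there as well. Inside the stretch the inputs at 0 h placed 0.258% (KO) and 0.412% (WT) of their region tags, a ratio of 0.625, and 0.687 at 1 h, with 1 library each. Before the stretch the input ratios were 1.16 and 1.07. Input regions inside it covered 364 and 360 kb at 0 h, at 11 and 12.6 tags per kb. The densities before the stretch differed in the same direction, at 10.4 and 11.9 tags per kb, and so did those in the 8 Mb before the segment, at 10.6 and 12.1. The input regions inside the stretch held 4025 normalized tags in KO and 4535 in WT, out of 15.6% and 11% of the input's tags that lay in regions. At 1 h these regions covered 381 and 545 kb, at 11.9 and 13.2 tags per kb. The KO input at 18 h gave 27554 regions, against 64725 or more in each other input, and its ratio of 0.224 inside and 0.357 before the stretch is given only for completeness. Of the members, 272 H3K27ac and 233 Pol II regions overlapped an input region, and so did 40 of 48 and 15 of 16 of those called. What part the input plays here was not tested. Without regions that overlap an input region, 8 H3K27ac members and 1 Pol II member were called on average, and the stretch ran from 170.58 to 172.20 Mb. Fewer regions are tested under that setting, and these counts are not set beside a share of the genome.

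Regions were called in neighbouring DNA too. In the 8 Mb before, 1 of 215 H3K27ac and 0 of 108 Pol II regions were called on average. In the 8 Mb after, which hold the rest of the stretch, it was 15 of 245 (6.12%, against 17.2% in the segment) and 11 of 152 (7.24%, against 7.8%). At 1 h the shares after it were 26.2% for H3K27ac and 24.1% for Pol II, against 29.9% and 19.1% in the segment. In 8 Mb around Nr4a1 on chromosome 15 the counts were 17 of 317 and 6 of 259. Outside the segment the whole genome had 438 of 51202 and 225 of 40499. These counts stand beside each other as a description, since the segment was chosen by this contrast.

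The segment holds 110 protein-coding genes, 29 of which start before the stretch and 81 inside it. For a gene, Pol II was summed over its length and 500 bp on either side, and H3K27ac over 2500 bp on either side of the start. Averaged over the times, 11 of 90 tested genes were called with Pol II, beside 0.79% of tested genes of the genome (0.417% higher, 0.373% lower), and all 11 lay inside the stretch. Of these, 2 were higher in KO, Nr1i3 among them, and Sh2d1b1, Nos1ap, Fcgr2b, Fcgr4, Slamf7, Igsf9, Cfap45, Vsig8 and Slamf8 were lower. With H3K27ac at the start, 10 of 82 were called, beside 0.456% (0.138% higher, 0.318% lower). Uap1, Sh2d1b1, Nos1ap, Fcgr2b, Fcgr3, Alyref2, Cfap45 and Vsig8 were lower in KO, and Nr1i3 and Igsf8 higher. Neighbours that share a window share values, such as Nr1i3 and Tomm40l, or Cd244a, whose annotated span covers Ly9.

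Among the 7 Fc receptor genes, Pol II averaged over the times was called lower in KO at 2 of 7 tested, Fcgr2b and Fcgr4. Of all tested genes of the genome 0.79% were called, 0.373% lower. The median difference was -0.49, beside 0.055 over the genome. For Fcgr2b (chr1:170958617-170976547) Pol II read 238, 259 and 266 untreated, 831, 793 and 846 after 1 h and 1293, 1272 and 1286 after 18 h in WT. In KO it read 171, 219.9 and 197 untreated, 262, 259 and 236 after 1 h and 199.6, 207 and 182 after 18 h, below every WT value of the same time. In WT Pol II rose over Fcgr2b by 1.66 in log2 at 1 h (limma adjusted p = 4.39e-12) and by 2.29 at 18 h (9.18e-14). In KO the changes were 0.35 (0.00108) and 0.01 (0.955), both under the fold threshold. H3K27ac at its start read 134, 161 and 136 before LPS, 308, 336 and 339 at 1 h of it and 623, 591 and 628 at 18 h in WT. KO values were 109, 101 and 94.8 before LPS, 127, 157 and 135 at 1 h of it and 208, 163 and 147 at 18 h. It rose in WT by 2.03 at 18 h (1.28e-09), and in KO it changed by 0.70 (0.000104).

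Fcgr4, next to it, was lower in KO but responded in both genotypes. Pol II over it read 172, 181 and 202 at 0 h, then 154, 137 and 154 at 1 h and 768, 715 and 743 at 18 h in WT. KO libraries read 99.8, 114 and 83.2 at 0 h, then 53.6, 55.6 and 50.0 at 1 h and 377, 392 and 399 at 18 h. It rose at 18 h by 1.95 in WT (limma adjusted p = 1.05e-11) and by 1.88 in KO (1.47e-11). Its average difference of -1.03 between the genotypes lay close to the threshold and was -0.96 without replicate 3. Fcgr3 read 1222, 1389 and 1338 untreated, 372, 299 and 373 after 1 h and 791, 818 and 775 after 18 h in WT. KO values were 1332, 1509 and 1375 untreated, 207, 186 and 191 after 1 h and 622, 672 and 642 after 18 h, and Pol II fell over it at 1 h in both (by 1.90 and 2.79, limma adjusted p = 5.64e-13 and 2.54e-15). With H3K27ac its difference was called, -1.15 ± 0.11 (SE) in log2, with every KO value below every WT value. Fcer1g, the signalling chain shared by activating Fc receptors, was not called (-0.50 ± 0.06 (SE) with Pol II). Some Fc receptor genes were called at a single time only. Fcrla was higher in KO at 1 h, by 1.12 with H3K27ac and 1.23 with Pol II, and Fcrlb at 18 h with H3K27ac, by 1.18. Pol II over Fcrl6 differed by -1.48 at 18 h.

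Of the 11 SLAM family genes and adapters, Pol II averaged over the times was called lower in KO at 3, Sh2d1b1, Slamf7 and Slamf8 (genome 0.373%). The median difference was -0.095, beside 0.055 over the genome. Slamf7 read 1069.7, 1298 and 1209 before LPS, 7124, 7162 and 7438 at 1 h of it and 8843, 8806 and 7089 at 18 h in WT. KO libraries read 393, 332 and 395 before LPS, 3131, 2876 and 2961 at 1 h of it and 7489, 7384 and 7677 at 18 h, so that the genotypes overlapped at 18 h but not at 0 and 1 h. Pol II over it rose at 1 h in WT by 2.60 (limma adjusted p = 8.45e-15) and in KO by 2.97 (1.43e-15). At 18 h the increases were 2.78 (7.53e-15) and 4.30 (1.37e-17). The average difference of -1.02 was -0.94 without replicate 2. Over Sh2d1b1, WT read 63.3, 73.0 and 83.2 at 0 h, then 6.90, 0 and 0 at 1 h and 73.1, 83.2 and 96.3 at 18 h. KO read 17.4, 25.8 and 28.9 at 0 h, then 0 in all 3 libraries at 1 h and 0 in all 3 libraries at 18 h, so Pol II was not listed in any KO library after LPS. Slamf8 read 320.4, 342 and 343 untreated, 403, 396 and 388 after 1 h and 587, 540.2 and 556 after 18 h in WT. KO values were 102, 112 and 110.1 untreated, 40.7, 30.0 and 36.6 after 1 h and 440.4, 384 and 409.6 after 18 h, lower in KO at each time.

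Cd48, Ly9 and Cd84 were not called between the genotypes. Cd48, a membrane-anchored ligand of Cd244a, read 1009, 1196 and 1248 before LPS, 2591, 2539.8 and 2580.2 at 1 h of it and 1211, 1183 and 1229 at 18 h in WT and differed by -0.07 ± 0.04 (SE). Pol II rose over it at 1 h by 1.16 in WT (limma adjusted p = 1.25e-11) and 1.25 in KO (5.27e-12). Ly9 differed by -0.40 ± 0.04 (SE) and also rose at 1 h, by 1.56 (9.26e-14) and 2.00 (2.96e-15). Cd84 went the other way in both, by -1.62 (3.06e-13) and -1.22 (1.89e-11). Some of the cluster's genes were called at a single time only. At 1 h Pol II was higher in KO over Slamf1, by 1.42, and Sh2d1b2, by 1.26, and at 18 h H3K27ac at the start of Cd244a differed by -1.62.

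**Figure D4:**
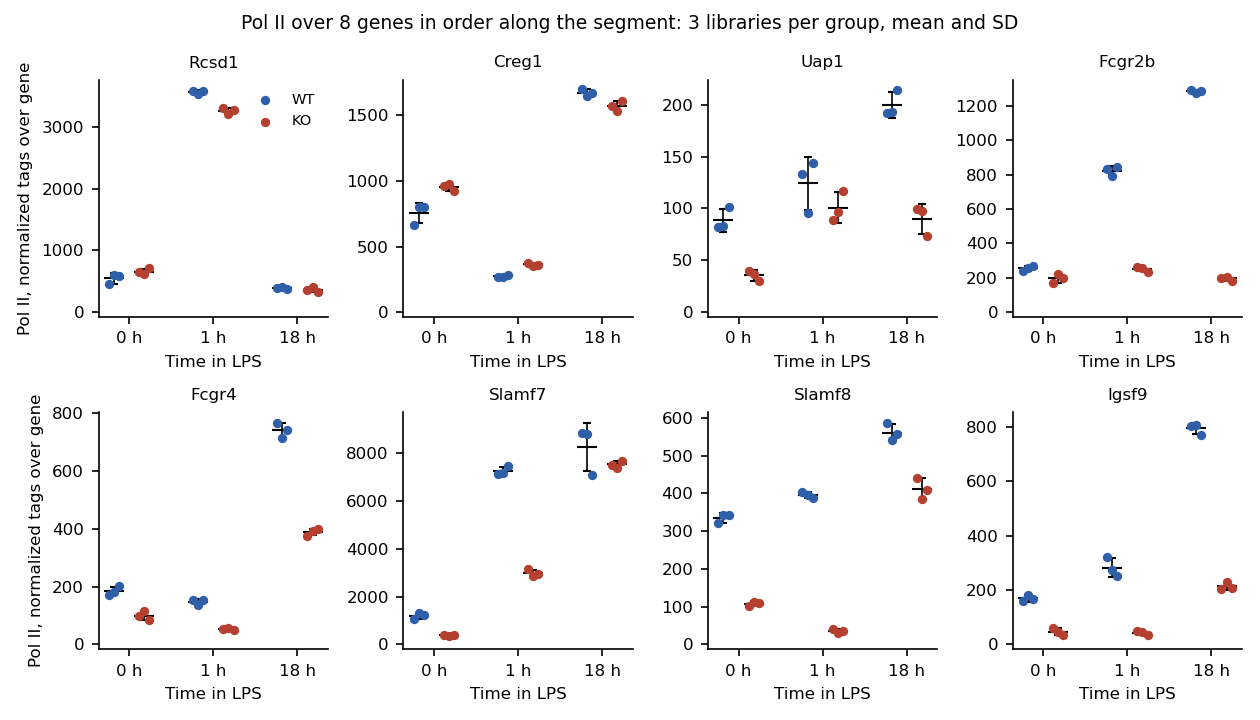
Pol II over 8 genes, in normalized tags summed over the gene, at 0, 1 and 18 h of LPS, in order along the segment. Points are the 3 libraries of a group, WT in blue and KO in red, with mean and SD. Rcsd1 and Creg1, before the stretch of differences, differ by less than the threshold between the genotypes, while Fcgr2b in KO stays between 171 and 262 at times when WT reaches 1293.

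Among transcription factors and chromatin genes, 2 of 7 tested of 11 listed were called with Pol II in the average over the times, beside 0.79% of the genome. Both were higher in KO (genome 0.417%), Nr1i3 among them. Over Nr1i3, 1 WT library at 0 h (910) and 1 KO library at 1 h (244) read like the other genotype, so its values overlapped at these times. Usf1, a factor that binds E-box motifs, differed by -0.63 ± 0.11 (SE) in the average, which was not called, and by -1.12 at 1 h, which was. Atf6, a sensor of unfolded protein, was called at 18 h alone, at -1.11.

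Among 13 other cell surface and adhesion genes, 2 of 9 tested were called with Pol II, beside 0.79% of the genome. Both were immunoglobulin superfamily genes lower in KO (genome 0.373%). Igsf9 read 159.6, 183 and 167 before LPS, 321, 275 and 251 at 1 h of it and 805, 809 and 772 at 18 h in WT. KO values were 60.7, 46.1 and 35.8 at 0 h, then 47.7, 45.9 and 33.6 at 1 h and 206, 231 and 209 at 18 h, a difference of -2.0 ± 0.08 (SE). It rose at 18 h in both, by 2.16 in WT (limma adjusted p = 2.88e-10) and 1.99 in KO (7.82e-10). Vsig8 differed by -1.84 ± 0.09 (SE) with Pol II and by -1.62 ± 0.16 (SE) with H3K27ac. Within 500 bp of the start the Pol II difference was -0.02 for Igsf9, -0.09 for Vsig8, -0.44 for Slamf8, -0.34 for Fcgr4 and -0.81 for Sh2d1b1. None of these 5 was called there. A region's tags were shared out evenly over its length, so this window does not separate signal at the start from signal over the gene.

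The other role lists had few or no calls between genotypes in the average over the times. None was called there with Pol II among 9 tested signalling genes, 13 genes of mitochondria and metabolism, 8 of membrane traffic and organelles, 4 of mitosis, folding and protein modification, 5 ion pumps and channels and 3 pentraxins and other secreted proteins. With H3K27ac, Uap1 alone was called among 12 tested genes of mitochondria and metabolism, beside 0.456% of the genome. At its start WT read 179.8, 173 and 159.9 at 0 h, then 267, 272 and 292 at 1 h and 179, 177 and 192 at 18 h. KO libraries read 81.9, 78.0 and 77.5 untreated, 161, 101 and 101 after 1 h and 104, 97.3 and 64.2 after 18 h, below WT at each time. Tagln2, an actin-binding protein gene, lay just under the threshold in the average at -0.96 ± 0.05 (SE) and was called lower in KO at 1 h (-1.36) and 18 h (-1.12). Other calls at single times with Pol II in these lists included Uap1, Tstd1, Casq1, Olfml2b and Adamts4, lower in KO, and Kcnj9, higher.

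Genes in none of these lists included Nos1ap, Cfap45 and Alyref2, a gene related to the RNA export factor Alyref. Over Nos1ap, Pol II read 179, 249 and 240.2 in WT at 0 h and 23.7, 16.6 and 20.5 in KO. After LPS no library of either genotype exceeded 9.50, and no KO library listed it. Cfap45, named for cilia and flagella, differed by -1.47 ± 0.16 (SE) with Pol II and -1.61 ± 0.12 (SE) with H3K27ac. At the start of Alyref2 H3K27ac differed by -1.0 ± 0.05 (SE), just past the threshold, with every KO value below every WT value.

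LPS moved the segment in both genotypes. In WT, 108 of 239 H3K27ac members were called at 1 h, beside 40.9% of the genome, and 33 of them rose (15%). At 18 h it was 87 of 229 (39%), of which 25 rose (13.5%). With Pol II, 87 of 163 were called at 1 h (49.9%), of which 11 rose (9.35%), and 54 of 179 at 18 h (31.1%), of which 27 rose (13.1%). In KO, 65 of 228 H3K27ac members were called at 1 h (27.3%), of which 21 rose (10.6%), and 94 of 229 at 18 h (40.1%), of which 28 rose (13.7%). With Pol II it was 72 of 147 at 1 h (47.3%), of which 11 rose (11.8%), and 54 of 151 at 18 h (37%), of which 21 rose (15%). These shares lay close to those of the genome, but at 18 h the 2 parts of the segment differed. With H3K27ac, 1 of 74 members before the stretch rose in WT and 34 fell, and 2 and 34 of 80 in KO. Inside it 24 rose and 28 fell of 155 in WT, and 26 and 32 of 149 in KO. The genome's shares that fell were 25.5% and 26.4%. With Pol II, 1 rose and 13 fell of 41 in WT before it, and 1 and 16 of 34 in KO. Inside it the counts were 26 and 14 of 138 and 20 and 17 of 117, beside 18% and 22% of the genome that fell. Pol II was lower over most genes of the genome at 1 h, with a median change of -0.82 in WT and -0.62 in KO. With each library centred on its median, 22 of 49 Pol II calls at 1 h in WT and 24 of 54 in KO were higher, and so were 45 of 99 H3K27ac calls at 1 h in WT and 38 of 84 at 18 h in KO. Without the 2 KO libraries that stood apart, the H3K27ac counts in KO were 67 at 1 h and 97 at 18 h.

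Before the stretch LPS changed Pol II in both genotypes. The Pol II region over Rcsd1, a gene for a binding partner of actin capping protein, spans 69.3 kb (chr1:165641200-165710453). It read 586, 751 and 735 untreated, 3859.8, 3769.8 and 3822 after 1 h and 514, 538 and 535 after 18 h in WT. KO libraries read 818, 766 and 891 before LPS, 3528, 3437 and 3514 at 1 h of it and 515, 538 and 467 at 18 h. It rose at 1 h by 2.46 in WT (limma adjusted p = 4.15e-14) and 2.07 in KO (4.72e-13). The region over Fam78b, 98.6 kb long, fell from 1818, 2113 and 2124 at 0 h to 17.1, 11.7 and 10.3 at 18 h in WT, and from 2928, 2920.4 and 3018 to 9.99, 12.7 and 9.75 in KO. These were changes of -6.47 (limma adjusted p = 3.21e-17) and -7.16 (6.83e-18). Creg1, which encodes a lysosomal glycoprotein, fell at 1 h by 1.43 (1.74e-12) and rose at 18 h by 1.14 (9.6e-11) in WT. In KO it fell by 1.37 (3.88e-12), and its change of 0.72 at 18 h (5.06e-08) lay under the fold threshold.

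Inside the stretch some LPS responses were alike in both genotypes and others were not. Near Slamf1, the H3K27ac region chr1:171760909-171763956 was listed in no library at 0 h, in WT at 95.9, 95.9 and 95.3 at 1 h and 31.9, 58.1 and 56.8 at 18 h. In KO it read 46.2, 17.2 and 19.6 and 50.2, 91.2 and 86.1, lower than WT at 1 h and overlapping it at 18 h. The Pol II region in Atf6, chr1:170790928-170815059, read 159.7, 210.5 and 237 before LPS, 0 in all 3 libraries at 1 h of it and 159, 196 and 208 at 18 h in WT. KO values were 63.1, 89.7 and 72.4 at 0 h, then 7.68, 11.6 and 24.5 at 1 h and 31.7, 27.1 and 48.7 at 18 h. Adamts4, a secreted protease that cuts aggrecan, had most Pol II at 1 h, at 447, 506 and 573 in WT and 238, 153 and 193 in KO, and at no more than 7.00 at the other times.

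Across members tested in both genotypes, the changes after LPS in WT and in KO were set against each other. For Pol II at 18 h they correlated at 0.830 over 105 members inside the stretch, at 0.955 over 30 before it and at 0.924 over all tested regions. At 1 h the values were 0.792 over 96, 0.940 over 31 and 0.938. For H3K27ac they were 0.870 over 128, 0.917 over 73 and 0.938 at 18 h. At 1 h they were 0.753 over 124, 0.764 over 75 and 0.831, nearly the same inside and before the stretch. Members share libraries and neighbouring DNA, and a correlation across them is given as a description. It also depends on how widely the changes range. For Pol II at 18 h the median absolute difference between the 2 changes was 0.458 over 150 members inside the stretch. It was 0.475 over 45 members before it, and the SDs of the difference were 0.778 and 0.528. The direction of called changes was shared at all but 1 member: of the Pol II members called at 1 h, 41 inside the stretch were called in both genotypes (71.9% of the WT and 82% of the KO calls) and 1 of these went opposite ways. Before the stretch these shares were 81% and 94.4%, and over all tested regions 79.2% and 84.3%, with 7 of 11796 going opposite ways. The difference between the LPS changes of the genotypes, which is made of the contrast that chose the segment, was called at 23 of 268 H3K27ac members at 1 h (genome 3.11%), positive at 14 (1.75%) and negative at 9 (1.36%). At 18 h it was 17 of 257 (1.63%), positive at 9 (0.862%) and negative at 8 (0.769%). For Pol II the counts were 25 of 183 (4.91%), 17 positive (3.59%), and 20 of 195 (5.27%), 10 positive (2.92%). Without the 2 KO libraries that stood apart the H3K27ac counts were 69 and 32, and with libraries centred 8 of 24 and not 17 of 25 Pol II calls at 1 h were higher in KO. They were 66, 9 and 14 at 1 h and 33, 10 and 15 at 18 h without replicates 1, 2 and 3.

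**Figure D5:**
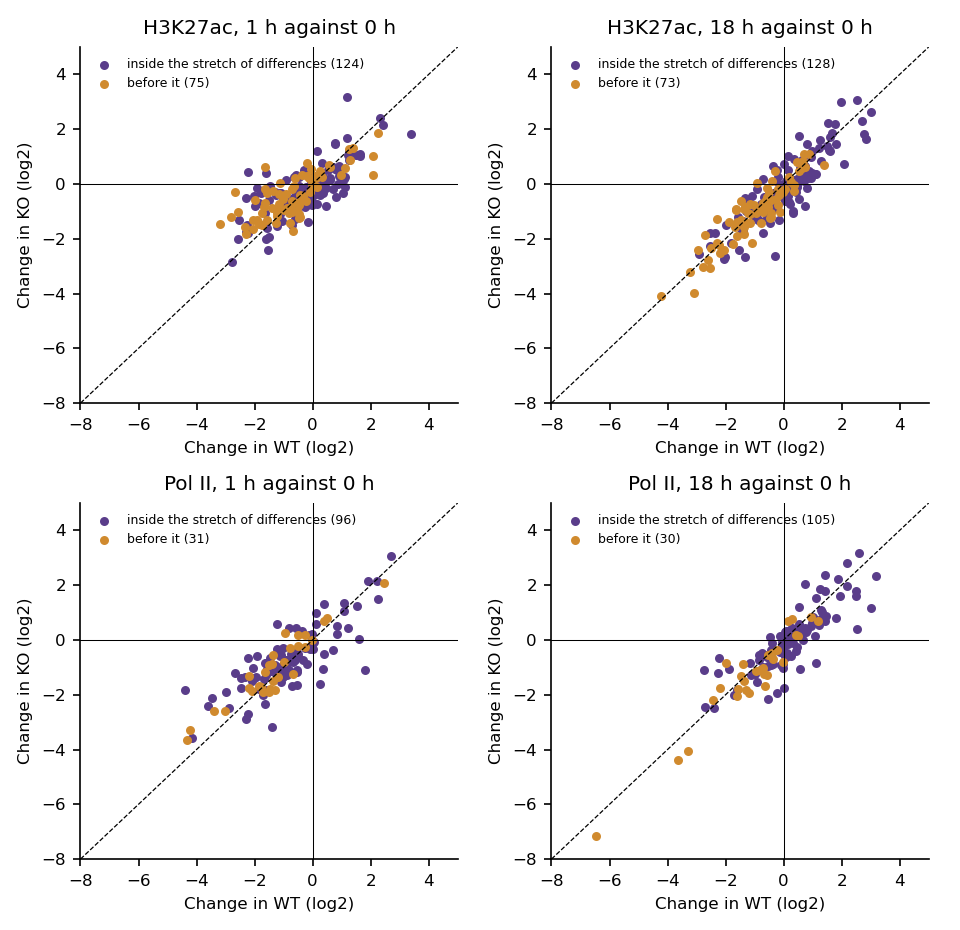
Change after LPS in WT (horizontal axis) and in KO (vertical axis), in log2(normalized tags + 10) against 0 h, for members tested in both genotypes. H3K27ac is at the top and Pol II at the bottom, 1 h on the left and 18 h on the right. Orange points lie before the stretch of differences and purple points inside it, and the dashed line marks equal changes. For Pol II at 18 h r was 0.830 for the purple points and 0.955 for the orange ones, which is no measure of distance from the line.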

How the data were processed

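H3K27ac and Pol II ChIP-seq was done on 3 libraries of each of 6 groups (36 libraries), with 6 inputs, 42 samples in all. Per the labels and methods, the authors used Skewer for trimming, HISAT2 2.1.0 for alignment to mm10 and HOMER for removing duplicates and finding regions, library by library, without input as control and without pooling. The deposited signal is the normalized tag count of each region per 10 M tags. No whole tags were recovered from it, so no count test was run.

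Here regions that overlapped among an antibody's 18 libraries were merged, with 0 where none was found. log2(value + 10) was fitted over all 6 groups with limma 3.58.1 (R 4.3.3), as group means with a trended prior. Testing needed a find in 2 or more of the 3 libraries of either group. Calls needed a limma p under 0.05 after Benjamini-Hochberg adjustment and an absolute log2 change over 1. Genes are the protein-coding genes of GENCODE vM21, and sequence is NCBI RefSeq GRCm38. The fit was tested on simulated data. Named are the regions and genes with the largest changes per contrast, the regions listed in one genotype only, the edges of the stretch and the genes of the role lists. The members and lists were chosen with earlier results of these data known. Libraries were not treated as paired by replicate number. Alternatives were another pseudocount, filter, merging, centring, chaining, gene window and library set. Results for some genes are not reported here.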

Additional observations from a re-analysis of the deposited data

Results flagged for a closer look

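Among the members named for the size of their change after LPS, 5 differed between KO and WT in the change after LPS by more than the threshold, in the interaction term of the limma fit. Further members were called for this term. It is made of the contrast that chose the segment, and its values are a description. Where a region is listed at 0 they depend on the 10 added before the log2 and are no bounds. The H3K27ac region near Slamf1, chr1:171760909-171763956, listed in no library at 0 h, changed at 1 h by 1.57 less in KO (-1.57 in log2), and the region near Slamf8, chr1:172575944-172580824, by -2.57. The H3K27ac region in the intron of Nos1ap, chr1:170562195-170566703, gave 3.39 at 18 h, which is only the WT decrease with its sign turned, since no KO library listed the region. The Pol II region in Atf6, chr1:170790928-170815059, gave 2.56 at 1 h, when no WT library listed it. The Pol II region in Cd244a, chr1:171575591-171579771, gave -1.83 at 18 h.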

How the results depend on the processing

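Counts of members called stayed within 1.5 times of the first analysis in 176 of 230 cases, and in all 20 cases each with no filter, a common density floor, merging across 1000 bp or the replicate block. The labels do not say whether replicate numbers pair the libraries. Deviations of same-numbered libraries of KO and WT correlated from -0.106 to 0.028 with H3K27ac and from -0.063 to 0.109 with Pol II. Over all 45 pairs of same-numbered libraries the mean was -0.028 with H3K27ac and 0.002 with Pol II. Over the 90 other pairs it was 0.010 and -0.001. With H3K27ac 1 of 9 and with Pol II 6 of 9 correlated best with their own number. With the replicate block the counts were 48, 65, 47, 48, 108, 87, 64, 94, 20 and 17 for H3K27ac and 27, 21, 33, 16, 87, 54, 72, 54, 25 and 20 for Pol II. This order, used throughout, is KO against WT at 0, 1 and 18 h and averaged, LPS at 1 and 18 h in WT, then in KO, and the interaction at 1 and 18 h.

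Testing only regions found in every library gave 18, 25, 17, 12, 51, 38, 28, 43, 1 and 3 for H3K27ac and 9, 12, 15, 7, 34, 28, 34, 23, 7 and 5 for Pol II. Leaving out input regions gave 11, 10, 9, 8, 17, 11, 8, 11, 6 and 7, and 3, 1, 2, 1, 5, 5, 4, 5, 4 and 3. Both settings test fewer regions. A pseudocount of 1 gave 41, 35 and 47 Pol II members at 0 h, 1 h and averaged, and 20 Pol II genes averaged, and centring gave 49 Pol II members at 1 h in WT. Without the KO libraries of replicate 1 at 1 h and 18 h, the H3K27ac interaction gave 69 and 32 members and 9 genes at 1 h. Leaving out replicates in turn gave 28 to 93 H3K27ac members at 1 h, 31 to 53 at 18 h, and 9 to 66 and 10 to 33 for the interaction. It gave 3 to 9, 3 to 13 and 4 to 11 H3K27ac genes at 0, 1 and 18 h, and 0 to 10 and 0 to 4 for the interaction.

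The start of the stretch moved to 166.94 Mb with gaps of 2 Mb, 170.16 with Pol II alone, 170.17 with regions found in every library, 170.58 without input regions and 168.41 with regions whose libraries do not overlap. Leaving out replicates gave 168.36 to 168.41. With a pseudocount of 1 the stretch of 161 regions still began at 168.36 Mb, and a second chain of 7 regions, all higher in KO, reached into the segment from 164.39 to 166.94 Mb. With gaps of 0.5 Mb the stretch split into 3 regions from 168.36 to 168.46 Mb and 59 from 170.14 to 172.60 Mb. The end moved to 172.60 with gaps of 0.5 Mb or regions found in every library, 174.03 with Pol II alone, 175.64 with a pseudocount of 1, 172.20 without input regions and 173.99 with regions that do not overlap.

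Within 500 bp of the gene start, the H3K27ac counts were 3 at 0 h, 5 at 1 h and 5 averaged, 9 at 1 h in WT, 5 and 9 at 1 and 18 h in KO and 1 for the interaction at 1 h. The Pol II counts there were 4, 2, 8, 3, 16, 8, 12, 8, 6 and 1. Pol II changes in WT turned direction there for Atf6 (0.42), Cd244a (-1.44) and Dcaf8 (0.57) at 1 h and Aldh9a1 (0.73), Dusp12 (0.26) and Pogk (0.52) at 18 h. The H3K27ac region in Cd84 turned to 0.08 when merged across 1000 bp. Over whole regions NBRE and AP-1 were found in 14.2% and 37.9% of H3K27ac and 17% and 37.9% of Pol II members. The cause was not tested in these cases. The depth of a region listed at 0 is unknown, which limits every result listed in one genotype.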
